A study of Mus musculus with 28 samples.

Results

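Dendritic cells sample antigen in tissues and carry it to lymph nodes, and the 10 genes described here are used to recognise them or are needed to make them. The genes were taken by name: the growth factor receptor Flt3, the receptors Xcr1, Clec9a and Ccr7, the transcription factors Zbtb46, Batf3 and Irf4, the surface proteins Cd24a and Itgae, and the enzyme Naaa. Of the 10, 9 had a row among the 14617 genes of the deposited table, and Xcr1, the chemokine receptor that marks conventional type 1 dendritic cells, was not analysed here. The RNA was counted by MARS-seq, a 3′-end method in which each captured transcript carries a unique molecular identifier (UMI). Levels (CPM) are a gene's UMIs per 1000000 UMIs of its library. A 3′ count allows a gene to be compared between libraries, and no level is compared between genes here.

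The libraries came from brains of lethally irradiated Cx3cr1 gfp/+ mice, whose own microglia and macrophages carry GFP. All hosts received marrow with the floxed allele, hDNMT3A fl/fl, either with Vav-Cre, a Cre active in blood-forming cells (mutant), or lacking Cre (control). Cells were taken 16 weeks after the transplant. GFP-negative cells of donor marrow and GFP-positive cells of the host were sorted, up to 100000 per library, from the perfused parenchyma (labelled microglia) and from the leptomeninges (labelled leptomeningeal macrophages), with actinomycin D during preparation. There were 28 libraries, 2 per genotype for host leptomeningeal macrophages and 4 per genotype for the other 3 populations. The sources used here do not give strain, sex or age of the mice. Nothing in the labels says that libraries are separate animals, so each p-value measures the spread between these libraries, which may be technical.

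Conventional dendritic cells arise from marrow progenitors under Flt3 ligand, and the type 1 and type 2 branches depend on different factors, Batf3 with Irf8 for the first and Irf4 with Klf4 for the second. In the brain they are found mostly at the borders, in meninges and choroid plexus, where they lie beside macrophages, and few are found in the parenchyma of healthy animals. None of the 10 genes belongs to dendritic cells alone. Cd24a is also made by neutrophils and B cells, Irf4 and Ccr7 also by lymphocytes, and Naaa and Batf3 also by macrophages.

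In mm10 (GENCODE M21 annotation) the 9 genes, all protein-coding, lie at chr5:147330741-147400489 (Flt3), chr6:129408862-129424763 (Clec9a), chr11:99144196-99155077 (Ccr7), chr2:181387762-181459426 (Zbtb46), chr1:191097847-191108945 (Batf3), chr13:30749226-30766976 (Irf4), chr10:43578284-43584265 (Cd24a), chr11:73090583-73147446 (Itgae) and chr5:92257659-92278170 (Naaa). Promoters of 7 of the 10 genes were found in the RefSeq table of build GRCm38.p6, each holding 250 bases before to 50 bases after the RefSeq start. That start can differ from the GENCODE one, and the promoters of Batf3 and Zbtb46 lie inside the GENCODE coordinates of their genes. Those of Flt3 (chr5:147400440-147400739, minus strand), Clec9a (chr6:129408612-129408911, plus strand), Batf3 (chr1:191098164-191098463, plus strand) and Naaa (chr5:92278132-92278431, minus strand) are shown, because these 4 genes were all higher in donor than in host leptomeningeal cells. They read 5′ to 3′ in the direction of the gene, with capitals for a match to any motif searched.
Flt3: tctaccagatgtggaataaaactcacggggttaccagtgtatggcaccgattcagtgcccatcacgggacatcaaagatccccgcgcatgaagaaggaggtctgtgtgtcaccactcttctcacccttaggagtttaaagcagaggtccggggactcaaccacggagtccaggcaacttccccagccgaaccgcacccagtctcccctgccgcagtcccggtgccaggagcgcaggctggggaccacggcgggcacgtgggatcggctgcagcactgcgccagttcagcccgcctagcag
Clec9a: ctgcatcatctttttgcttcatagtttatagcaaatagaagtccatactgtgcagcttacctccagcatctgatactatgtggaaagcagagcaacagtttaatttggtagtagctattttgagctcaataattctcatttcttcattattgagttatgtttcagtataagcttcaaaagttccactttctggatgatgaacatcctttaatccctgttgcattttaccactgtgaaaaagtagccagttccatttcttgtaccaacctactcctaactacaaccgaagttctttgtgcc
Batf3: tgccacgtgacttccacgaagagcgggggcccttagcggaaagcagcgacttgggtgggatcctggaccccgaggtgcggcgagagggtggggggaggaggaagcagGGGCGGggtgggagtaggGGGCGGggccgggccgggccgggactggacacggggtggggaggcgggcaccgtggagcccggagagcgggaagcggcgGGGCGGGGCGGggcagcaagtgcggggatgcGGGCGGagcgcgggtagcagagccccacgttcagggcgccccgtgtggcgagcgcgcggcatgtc
Naaa: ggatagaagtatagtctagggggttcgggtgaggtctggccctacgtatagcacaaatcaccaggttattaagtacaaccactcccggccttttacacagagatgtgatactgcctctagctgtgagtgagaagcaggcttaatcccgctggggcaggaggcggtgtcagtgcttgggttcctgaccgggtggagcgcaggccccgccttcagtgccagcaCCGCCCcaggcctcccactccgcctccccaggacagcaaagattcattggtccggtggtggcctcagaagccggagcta
The motifs were a PU.1 site (GAGGAAGT), an AP-1 site (TGANTCA) and a GC box (GGGCGG), on both strands. In 27025 RefSeq promoters of this length, they were found in 3.28%, 7.93% and 35.91%, and in the 10614 of them that belong to genes of the deposited table in 3.39%, 4.92% and 62.75%. The Batf3 promoter, at 75.7% G and C, held 5 GC boxes, and the Naaa promoter, at 58.7%, held 1. The Flt3 promoter, at 61.0% G and C, and the Clec9a promoter, at 37.0%, held none of these 3 letter strings. The promoter of Zbtb46 held 1 AP-1 match and that of Irf4 held 2 GC boxes.

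Total UMIs ran from 479077 to 3066506 per library. Donor microglia were the shallowest, at 479077 to 1013608, where a count of 0 allows a level of 6.26 CPM in the shallowest library, against 0.978 CPM in the deepest of all 28 (3 UMIs, counting error only). Summed microglia markers were highest in host microglia (29268 to 36306 CPM) and summed border macrophage markers in host leptomeningeal macrophages (9613 to 13341 CPM). Of the microglia markers, donor microglia held 8015 to 9888 CPM and host leptomeningeal macrophages 6283 to 11147 CPM. Mouse Dnmt3a was 70.8 ± 16.9 CPM in control and 67.5 ± 7.41 CPM in mutant donor microglia (SD, n = 4 each), and 26.0 ± 4.11 and 25.5 ± 6.80 CPM in donor leptomeningeal cells. The sources used here do not state whether transcripts of the hDNMT3A allele are counted under this symbol, so these levels do not check the labels. All 15 neutrophil markers listed were detected in donor leptomeningeal cells, summing to 36911 to 98892 CPM, against 2022 to 6034 in host leptomeningeal macrophages, 1114 to 10555 in donor microglia and 593 to 1541 in host microglia. Choroid plexus and ependymal markers summed to 16647 to 34977 CPM in donor microglia and to at most 408 CPM elsewhere. In principal components 4 and 5, control library 1 and mutant library 4 of donor microglia stood apart from the others.

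Of the 9 genes, 7 had their highest group mean in donor leptomeningeal cells. The exceptions were Zbtb46, highest in host leptomeningeal macrophages, and Itgae, highest in host microglia. The share of all genes highest there is not given here, so this count is a description. Irf4 in control donor leptomeningeal cells (13.6 CPM) lay below both host leptomeningeal groups (14.3 and 13.8 CPM). Batf3 in mutant donor microglia (80.6 CPM) lay above control donor leptomeningeal cells (74.0 CPM). All 9 passed the filter on low counts over the 8 groups. Only Batf3 and Naaa would have passed it on donor microglia alone, and only Batf3, Irf4 and Naaa on host microglia alone. Flt3, Clec9a, Zbtb46, Ccr7 and Cd24a therefore entered the test through the leptomeningeal libraries, and their joint rise there is given as a description.

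**Figure D1:**
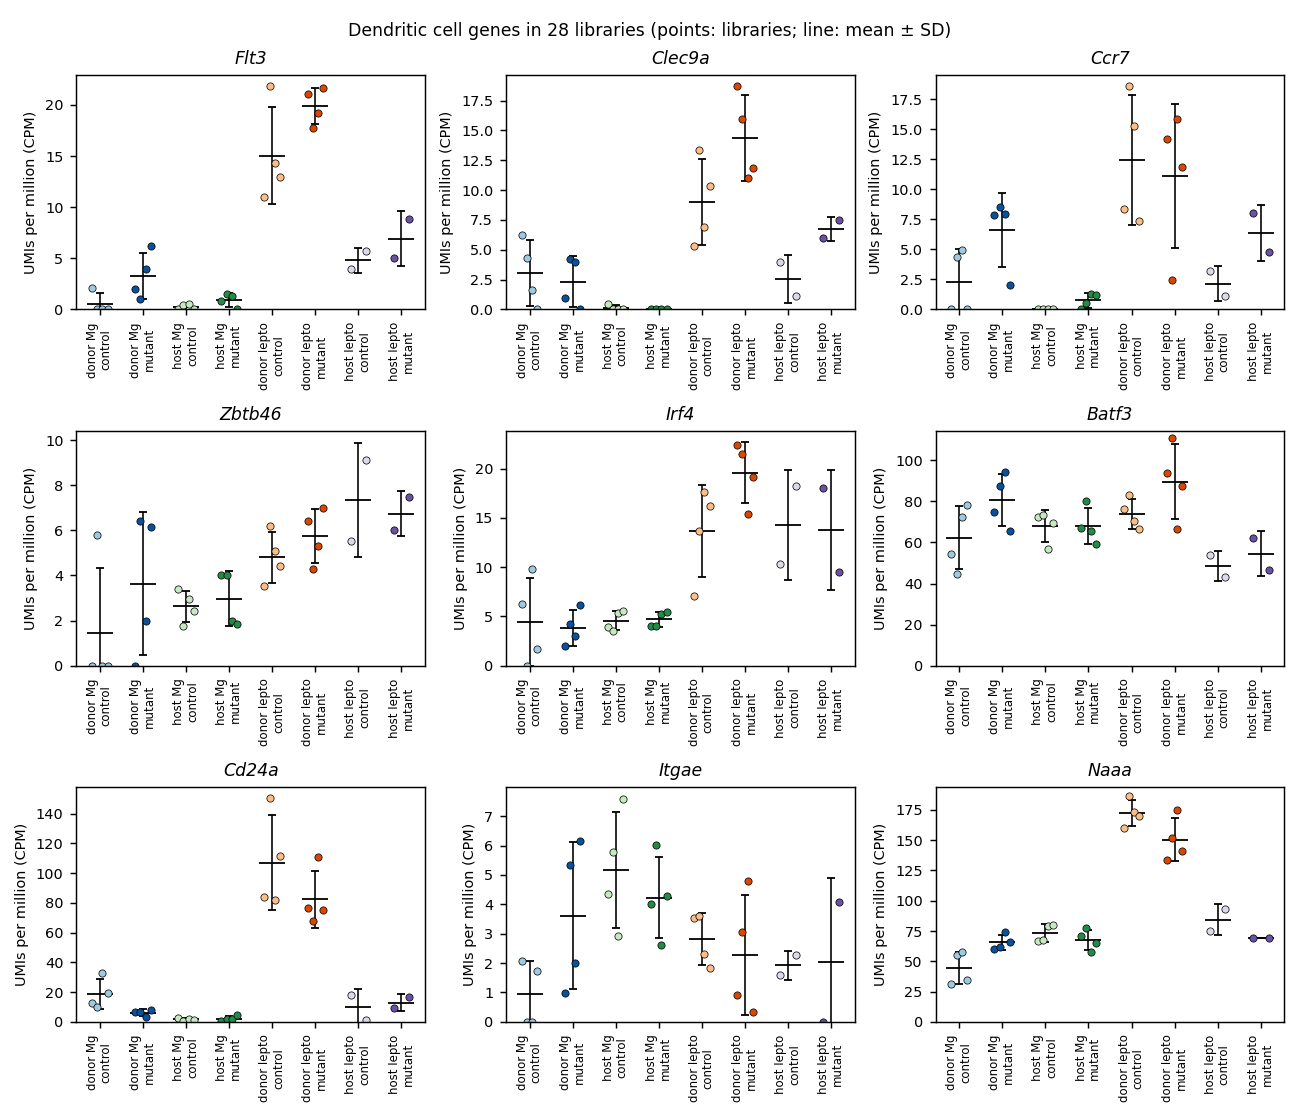
Levels (CPM, linear axis from 0) of the 9 genes in each of 28 libraries (points), with the mean and SD of each of the 8 groups; Mg stands for microglia and lepto for leptomeningeal cells. Flt3, Cd24a and Naaa were higher in all 8 donor leptomeningeal libraries than in any other library, and the share of all genes that were is not given here. Batf3 in microglia overlapped both leptomeningeal populations.

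Flt3, the receptor tyrosine kinase for Flt3 ligand, separated the donor leptomeningeal cells from every other population. Its levels were 11.01, 21.85, 14.4 and 12.9 CPM in control and 21.03, 17.8, 19.2 and 21.6 CPM in mutant libraries of these cells. Host leptomeningeal macrophages had 3.96 and 5.70 CPM in control and 5.02 and 8.81 CPM in mutant libraries. All 4 lay below the lowest donor library. Donor microglia ran from 0 to 6.16 CPM with a median of 1.52, and host microglia from 0 to 1.502 CPM with a median of 0.467. Both microglial populations had 3 of 8 libraries without a UMI.

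Clec9a, a lectin receptor of type 1 dendritic cells that binds the actin of dead cells, was near the limit of detection in host microglia, with 1 UMI in 8 libraries. Donor leptomeningeal cells had 5.28, 13.4, 6.95 and 10.3 CPM in control and 18.7, 15.9, 11.1 and 11.9 CPM in mutant libraries. Host leptomeningeal macrophages had 3.96, 1.14, 6.02 and 7.46 CPM, which overlapped the lower donor libraries. In donor microglia, 6 of 8 libraries held at least 1 UMI and levels reached 6.26 CPM, from at most 4 UMIs in a library.

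Ccr7, the chemokine receptor that guides mature dendritic cells and lymphocytes to lymph nodes, ran from 2.45 to 18.6 CPM among the donor leptomeningeal libraries. They had 8.37, 18.6, 15.3 and 7.38 CPM in control and 14.2, 2.45, 15.9 and 11.9 CPM in mutant libraries. Mutant library 2 was the low one, with 4 UMIs, and it also had the lowest sum of B cell markers of the 8, 471 CPM against 545 to 3893 CPM in the other 7. Igkc ran from 17.8 to 3043 CPM and Ighm from 305.2 to 782.6 CPM in these libraries. Host leptomeningeal macrophages had B cell sums of 554 to 5197 CPM, with Ccr7 at 1.14 to 8.03 CPM. The part of B cells in the Ccr7 level was not tested. Host microglia of control chimeras had no Ccr7 UMI in 4 libraries, and those of mutant chimeras had 5 UMIs in 4 libraries.

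Among the transcription factors, Zbtb46, a zinc finger protein that marks conventional dendritic cells among myeloid cells, was lowest in the parenchyma. It ran from 1.78 to 4.02 CPM (median 2.67) in host microglia and from 0 to 6.40 CPM (median 0.994) in donor microglia, where 4 of 8 libraries had no UMI. In the leptomeninges it ran from 3.52 to 6.97 CPM (median 5.19) in donor cells and was 5.55, 9.11, 6.02 and 7.46 CPM in host macrophages, so that donor and host overlapped.

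Irf4, used by type 2 dendritic cells and by lymphocytes, was 7.05, 13.7, 17.6 and 16.2 CPM in control and 22.4, 21.5, 15.4 and 19.2 CPM in mutant donor leptomeningeal libraries. Host leptomeningeal macrophages had 10.3, 18.2, 18.1 and 9.49 CPM, within the donor range. Both were above host microglia, which ran from 3.56 to 5.51 CPM with a median of 4.64. Donor microglia ran from 0 to 9.84 CPM with a median of 3.62 and overlapped both leptomeningeal populations. Batf3, an AP-1 family factor needed for type 1 dendritic cells, was detected in every library, at 43.3 to 110.9 CPM. Its population means were 81.8 ± 15.4 CPM in donor and 51.5 ± 8.39 CPM in host leptomeningeal cells, and 71.5 ± 16.4 and 68.0 ± 7.601 CPM in donor and host microglia (SD, n = 8, 4, 8 and 8).

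Cd24a, a sialoglycoprotein anchored in the membrane by a lipid and used to sort type 1 dendritic cells, had a wide range between populations. Donor leptomeningeal cells had 84.1, 150.3, 82.0 and 111.8 CPM in control and 76.3, 68.0, 110.6 and 75.0 CPM in mutant libraries. Host leptomeningeal macrophages had 18.2, 1.14, 9.04 and 16.95 CPM, and control library 2 held a single UMI. Donor microglia ran from 2.98 to 32.8 CPM (median 9.16) and host microglia from 0.402 to 4.27 CPM (median 1.96). Itgae, the alpha subunit of an integrin that binds E-cadherin, was low in every library, from 0 to 7.58 CPM, and all 4 populations overlapped.

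Naaa, a lysosomal enzyme that breaks down N-acylethanolamines, was 159.9, 186.2, 173.2 and 170.1 CPM in control and 133.9, 152.0, 175.0 and 141.2 CPM in mutant donor leptomeningeal libraries. No other library passed 93.4 CPM. Host leptomeningeal macrophages had 75.3, 93.4, 69.3 and 69.1 CPM, and host microglia ran from 57.8 to 79.6 CPM. Donor microglia ran from 31.3 to 74.5 CPM and overlapped host microglia.

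Leptomeninges against parenchyma in donor cells asked how cells of 1 origin differ between the border and the brain tissue. Of the 9 genes, 8 rose in donor leptomeningeal cells and none fell, by edgeR's quasi-likelihood test with Benjamini-Hochberg adjustment, where 30.5% of 12327 genes were called higher and 31.6% lower, 62.1% in either direction. The median log2 fold over the 9 was 1.80, against -0.03 over all genes tested. In bulk libraries, more cells of a type and more RNA per cell cannot be told apart, here and below. Flt3 had a log2 fold of 4.08 ± 0.40 (adjusted p = 4.78e-12), where the ratio of summed UMIs, 335 against 11, was 9.31 (5.14 to 18.8, exact 95% interval for counting error). The fitted fold leans on control donor microglia, which held 1 Flt3 UMI in library 1, and was 5.42 without that library.

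Cd24a rose by 3.41 ± 0.28 (adjusted p = 1.66e-10), Irf4 by 2.30 ± 0.31 (adjusted p = 1.53e-08) and Clec9a by 2.26 ± 0.38 (adjusted p = 1.67e-06) in the same comparison. Naaa, by 1.80 ± 0.10, had the smallest adjusted p (1.44e-19), and its libraries did not overlap between the compartments, nor did those of Flt3 and Cd24a, as for 10.3% of all genes with leptomeningeal cells higher. Ccr7 rose by 1.72 ± 0.42 (adjusted p = 6.77e-04) and Zbtb46 by 1.40 ± 0.46 (adjusted p = 0.00731). Zbtb46 was 3.67 without control donor microglia library 2, which held all 4 Zbtb46 UMIs of its group. Batf3 rose by 0.43 ± 0.11 (adjusted p = 0.00106). With library totals in place of edgeR's TMM scaling it was 0.19 (adjusted p = 0.153), and the calls over all genes went from 3754 higher and 3896 lower to 2724 and 5150. The value of Itgae was 0.76 ± 0.62 (adjusted p = 0.295).

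In host cells, the same comparison set leptomeningeal macrophages against microglia. In leptomeningeal macrophages 7 of the genes rose and none fell, where 31.1% of all genes were called higher and 25.7% lower, 56.7% in either direction. The median log2 fold of the 9 was 1.72, against 0.08 over all genes. Flt3 rose by 3.60 ± 0.52 (adjusted p = 8.90e-08), Irf4 by 1.72 ± 0.32 (adjusted p = 8.59e-06) and Zbtb46 by 1.46 ± 0.43 (adjusted p = 0.00383). The 4 leptomeningeal libraries of these 3 genes, and those of Clec9a, lay above all 8 of host microglia, as for 18.3% of all genes. Clec9a had 23 UMIs against 1, a ratio of 84.3 (13.7 to 3473, exact 95% interval), and Ccr7 had 20 against 5, a ratio of 14.7 (5.34 to 49.996), with adjusted p of 3.03e-07 and 2.39e-04. Markers of T and NK cells, which can make Irf4 and Ccr7, were also called higher in 14 of 14 tested, with sums of 319.3 to 510.3 CPM against 17.4 to 52.5 CPM, and their part in these values was not tested.

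Cd24a rose by 2.89 ± 0.53 between the host populations (adjusted p = 5.16e-05). Without control leptomeningeal library 1, which held 23 of the 58 UMIs and the highest neutrophil sum of the 4 host leptomeningeal libraries (6034 CPM), it was 1.31 (adjusted p = 0.413). Naaa, at 0.29 ± 0.12 (adjusted p = 0.0346), lost its call when any of 6 libraries was left out. These were control host microglia 1 and 2, mutant host microglia 3, control host leptomeningeal 2 and mutant host leptomeningeal 1 and 2, with adjusted p from 0.0546 to 0.200. With library totals Naaa was at 0.11 (adjusted p = 0.462). Itgae was at -0.97 ± 0.58 (adjusted p = 0.152). Without mutant host leptomeningeal library 2, which held 6 of its 10 UMIs there and left a mutant library with 0, it was called lower (-3.47, adjusted p = 0.0208). Batf3, at -0.22 ± 0.14 (adjusted p = 0.185), was called lower with library totals (-0.41, adjusted p = 0.0147), where calls over all genes went from 3832 higher and 3162 lower to 3171 and 4055.

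Donor against host cells in the leptomeninges asked what marrow-derived and resident cells of 1 compartment do not share. In donor cells 6 genes rose and none fell, where 16.9% of all genes were called higher and 13.3% lower, 30.2% in either direction. Of the 6, Flt3, Clec9a and Ccr7 passed the filter on low counts on donor leptomeningeal libraries alone but not on host leptomeningeal libraries alone. The count is therefore a description. The median log2 fold of the 9 was 1.32, against 0.01 over all genes. Naaa rose by 1.32 ± 0.12 (adjusted p = 2.31e-12), Cd24a by 3.18 ± 0.32 (adjusted p = 2.45e-08), Flt3 by 1.81 ± 0.32 (adjusted p = 1.05e-05) and Batf3 by 0.90 ± 0.14 (adjusted p = 1.44e-06). The libraries of these 4 genes did not overlap between origins, as for 7.5% of all genes with donor cells higher. Clec9a rose by 1.61 ± 0.40 (adjusted p = 0.00148) and Ccr7 by 1.87 ± 0.49 (adjusted p = 0.00308), with overlapping libraries.

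The values of Irf4 (0.50 ± 0.28, adjusted p = 0.173), Zbtb46 (-0.15 ± 0.40, adjusted p = 0.8293) and Itgae (0.45 ± 0.61, adjusted p = 0.636) did not pass between donor and host leptomeningeal cells. Without control host leptomeningeal library 1, Cd24a was 4.77 and Clec9a 2.22, and both kept their calls. All 6 genes were also called with library totals, where calls over all genes went from 2082 higher and 1636 lower to 1317 and 3088.

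In the parenchyma, 3 genes were higher in donor than in host microglia and none lower, where 33.1% of all genes were called higher and 27.3% lower, 60.4% in either direction. The median log2 fold of the 9 was 0.24, against 0.04 over all genes. Cd24a rose by 2.66 ± 0.53 (adjusted p = 1.11e-04). Clec9a had 16 UMIs against 1, a ratio of 46.6 (7.24 to 1954, exact 95% interval), and Ccr7 31 against 5, a ratio of 18.1 (6.96 to 59.5), with adjusted p of 1.99e-06 and 5.35e-05. Flt3, with 11 UMIs against 9, was at 1.33 ± 0.94 (adjusted p = 0.224). Markers of other cells were also called higher in donor microglia. These were 11 of 15 neutrophil markers (1 lower), 10 of 14 of T and NK cells, 11 of 11 of neurons and 7 of 7 of choroid plexus and ependyma. Of 5 B cell markers, 1 was called higher and 1 lower. Their part in the Cd24a, Clec9a and Ccr7 values was not tested.

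Itgae and Batf3 lay just outside the threshold in the parenchyma, the first at -1.28 ± 0.58 (adjusted p = 0.0537) and the second at 0.24 ± 0.12 (adjusted p = 0.0720). Both were called when donor microglia control library 1 or mutant library 4 was left out, or both together, which made 5 genes called. Batf3 was also called without control library 2 or mutant library 1 of donor microglia (adjusted p 0.0206 and 0.0397). Itgae was called without mutant library 2 of donor microglia or without control or mutant library 3 of host microglia (adjusted p 0.0375 to 0.0454). Batf3 passed with DESeq2's size factors (adjusted p = 0.0174), Itgae without the filter on low counts (adjusted p = 0.0455), and Naaa, at -0.27, without control library 3 of donor microglia (adjusted p = 0.0492). With library totals, Itgae (-1.46, adjusted p = 0.0252) and Naaa (-0.37, adjusted p = 0.00328) were called lower and Batf3 was at 0.07 (adjusted p = 0.646), with 3513 genes called higher and 4480 lower against 4084 and 3364.

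**Figure D2:**
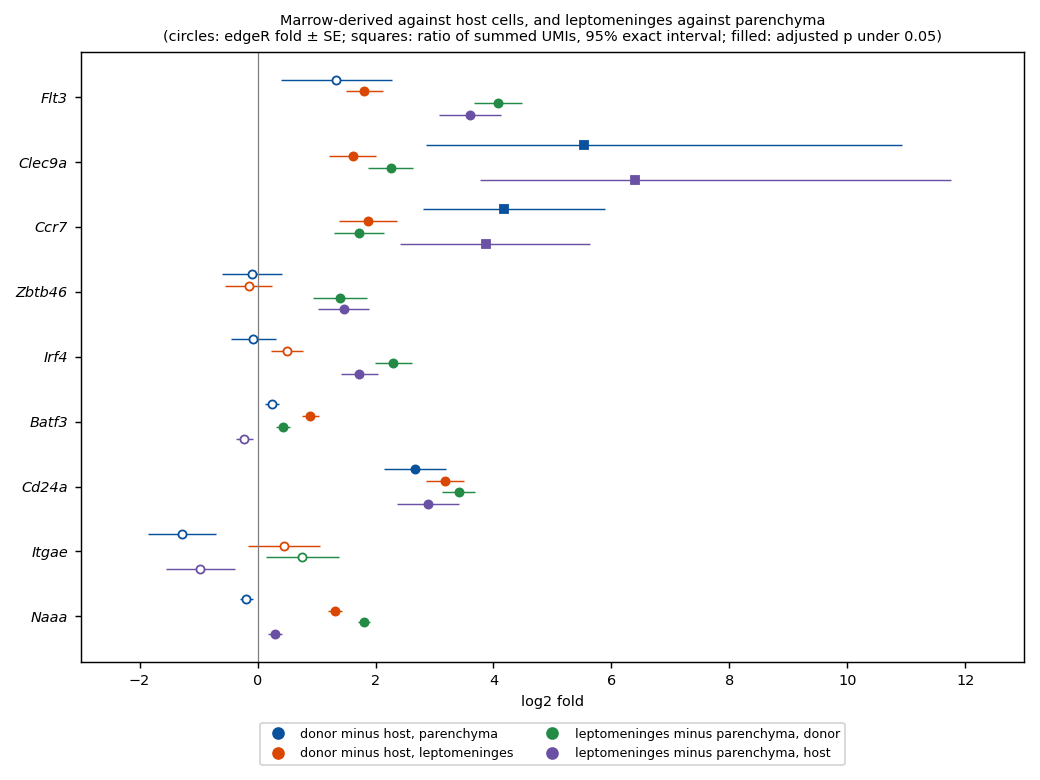
Log2 folds of the 9 genes in the 4 comparisons between populations. Circles give the fold fitted by edgeR ± SE, squares the ratio of summed UMIs with its exact 95% counting interval where a group of libraries held no UMI (Clec9a and Ccr7 against host microglia), and filled symbols an adjusted p under 0.05. Flt3, Irf4, Zbtb46, Cd24a, Clec9a, Ccr7 and Naaa were called higher in the leptomeninges in both comparisons between compartments. The share of all genes called in both is not given here. Between origins, Naaa was called higher in donor cells in the leptomeninges (1.32) and stood at -0.19, not called, in the parenchyma.

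Whether the difference between donor and host cells was itself different in the 2 compartments was tested with an interaction term. Of the 9 genes, 4 passed, 2 in each direction, where 42.2% of all genes did, 19.1% with the donor excess larger in the leptomeninges and 23.2% with it smaller. Naaa had a donor excess larger by 1.51 ± 0.16 in the leptomeninges (adjusted p = 1.62e-10), since it was at -0.19 ± 0.11 in the parenchyma and 1.32 ± 0.12 in the leptomeninges. Batf3 had a donor excess larger by 0.65 ± 0.18 (adjusted p = 0.00334). For Clec9a and Ccr7 the donor excess was smaller in the leptomeninges (adjusted p = 0.00395 and 0.0352), where the ratios of summed UMIs were 2.32 (1.51 to 3.74) and 2.81 (1.78 to 4.68). Host microglia held 1 UMI of Clec9a and 5 of Ccr7. Without control host leptomeningeal library 1, neither was called (adjusted p = 0.0704 and 0.204), both kept their direction, and 2 of the 9 genes were called, Batf3 and Naaa. Ccr7 also lost its call without control donor microglia 2 or 3, control host microglia 4 or mutant host leptomeningeal 1 (adjusted p 0.0562 to 0.0792). Itgae, at 1.73 ± 0.85 (adjusted p = 0.0984), was called without mutant host leptomeningeal library 2 (4.23, adjusted p = 0.0165), where the remaining mutant library of that group held no UMI. Flt3 and Cd24a had values of 0.48 ± 1.48 and 0.52 ± 0.72 (adjusted p = 0.847 and 0.619).

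Mutant against control chimeras gave no called dendritic cell gene in any of the 4 populations. Of all 12327 genes, edgeR called 0.0892% in donor microglia, 0.0487% in donor leptomeningeal cells, 0.0649% in host microglia and 0% in host leptomeningeal macrophages. At an unadjusted p under 0.05 there were 4 of the 9 genes in donor microglia, 1 in donor leptomeningeal cells, 2 in host microglia and 0 in host leptomeningeal macrophages. The shares of all genes above are at the adjusted threshold and are no background for these unadjusted counts, which are a description only. The alternatives run with edgeR also called none of the 9. DESeq2's Wald test called none either, but it gave some of the 9 no adjusted p, and those could not be called.

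Naaa had the smallest p in donor microglia. It was 31.3, 54.9, 57.4 and 34.7 CPM in control and 60.2, 61.9, 74.5 and 65.7 CPM in mutant libraries, which did not overlap, as for 1.46% of all genes with mutant libraries higher. The log2 fold was 0.54 ± 0.18 (adjusted p = 0.254). Cd24a, chosen after its values were seen, went the other way without overlap, as for 2.07% of all genes. It was 12.5, 10.1, 32.8 and 19.1 CPM in control and 6.91, 6.40, 2.98 and 8.21 CPM in mutant libraries, at -1.66 ± 0.63 (adjusted p = 0.369). The 15 neutrophil markers summed to 1417, 2873, 8475 and 10555 CPM in the control and 1411, 1242, 1914 and 1114 CPM in the mutant libraries of donor microglia, and their part in the Cd24a values was not tested. Flt3, with 10 UMIs in mutant and 1 in control donor microglia, had a ratio of 6.84 (0.974 to 297, exact 95% interval).

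In donor leptomeningeal cells, Batf3 had the smallest p. It was 76.2, 83.2, 70.4 and 66.4 CPM in control and 93.7, 110.9, 66.3 and 87.5 CPM in mutant libraries, which overlapped, at 0.28 ± 0.14 (adjusted p = 1.0). Flt3, Clec9a and Irf4 had higher means in mutant cells, at 0.42 ± 0.27, 0.66 ± 0.34 and 0.54 ± 0.27, and all 3 overlapped (adjusted p = 1.0). In host microglia, Ccr7 had 5 UMIs in mutant and 0 in control libraries, at least 2.02-fold higher against a floor of 3 UMIs over the control group (adjusted p = 1.0). In host leptomeningeal macrophages, with 2 libraries per genotype, Clec9a was 3.96 and 1.14 CPM in control and 6.02 and 7.46 CPM in mutant libraries, without overlap, as for 15.3% of all genes with mutant libraries higher, at 1.33 ± 0.77 (adjusted p = 0.934). Ccr7 also did not overlap, at 3.17 and 1.14 CPM in control and 8.03 and 4.75 CPM in mutant libraries. Naaa did not overlap in the other direction, at 75.3 and 93.4 CPM in control and 69.3 and 69.1 CPM in mutant libraries, as for 18.6% of all genes (-0.23 ± 0.20, adjusted p = 0.983).

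The genotype effect was also compared between the donor populations. None of the 9 genes passed, nor did any gene of the table (0%), and 1 of the 9, Naaa, had an unadjusted p under 0.05. The share of all genes at that unadjusted threshold is not given here, so this count is a description. Its genotype effect was lower in leptomeningeal cells than in microglia by a log2 value of -0.72 ± 0.21 (adjusted p = 0.594), at -0.18 ± 0.12 against 0.54 ± 0.18.

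**Figure D3:**
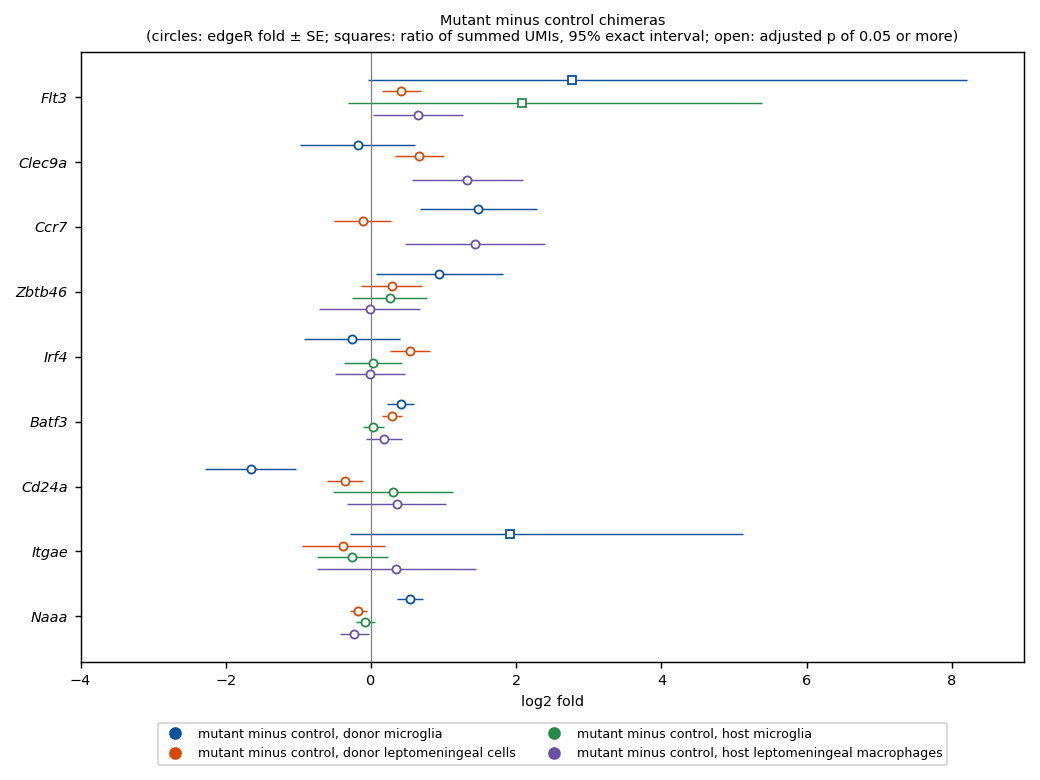
Mutant minus control log2 folds of the 9 genes in 4 populations. Circles give edgeR's fold ± SE, squares the ratio of summed UMIs with its exact 95% interval where 1 side held at most 3 UMIs, and the 2 folds of host microglia with 0 UMIs on 1 side (Clec9a and Ccr7) are left out. All symbols are open, since no adjusted p was under 0.05, and Cd24a (-1.66) and Naaa (0.54) of donor microglia are the 2 whose libraries did not overlap in a group of 4 against 4.

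Other dendritic cell genes, from lists chosen with earlier results of these data known, were compared between donor leptomeningeal cells and donor microglia, where 30.5% of all genes were called higher and 31.6% lower. Of 13 type 2 genes tested, 11 rose and 2 fell, with a median log2 fold of 2.16. Of 15 neutrophil markers, 14 were also called higher and 1 lower, and their part in the values of this list was not tested. Mgl2, a lectin, rose by 3.83 ± 0.12 (adjusted p = 2.93e-27), Cd209a, another lectin, by 3.28 ± 0.16, Il1r2, a decoy receptor for interleukin 1, by 3.48 ± 0.24, and Klf4, a factor of type 2 dendritic cells and monocytes, by 2.22 ± 0.10. Of 9 type 1 genes tested, 3 rose and 4 fell, with a median of -0.57. Cadm1, an adhesion protein, fell by 2.13 ± 0.13 and Id2, an inhibitor of helix-loop-helix factors, by 0.97 ± 0.09, while Wdfy4, needed for cross-presentation, rose by 1.07 ± 0.11 and Rab7b by 1.26 ± 0.14.

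Irf8, the partner of Batf3 and also a microglial factor, fell by 0.57 ± 0.08 in the same comparison (adjusted p = 5.57e-08). It was 275.1 ± 29.4 CPM in donor leptomeningeal cells and 843.5 ± 72.4 CPM in host microglia (SD, n = 8 each). Itgb7, the beta subunit that pairs with Itgae, rose by 3.88 ± 0.17 (adjusted p = 2.17e-19), from 18.9 ± 7.78 CPM in donor microglia to 234.5 ± 42.6 CPM, while Itgae did not pass. Of all 10 tested partner factors and ligands, 7 rose and 2 fell, beside 30.5% and 31.6% of all genes.

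Genes of mature, migrating dendritic cells gave 7 higher and 3 lower of 14, where 30.5% of all genes were called higher and 31.6% lower, which is also the background of the counts that follow. The chemokine Ccl17 rose by 3.66 ± 0.47, Traf1, an adaptor of tumour necrosis factor receptors, by 1.38 ± 0.17 and Tmem123 by 1.09 ± 0.16, whereas Adcy6, an adenylate cyclase, fell by 1.39 ± 0.24. Of 11 plasmacytoid dendritic cell genes, 3 rose and 7 fell, with a median of -0.92. Siglech of this list is also among the microglia markers used here. The list summed to 2788 to 3949 CPM in donor microglia, 2436 to 3169 CPM in host microglia and 596 to 1053 CPM in donor leptomeningeal cells. The part of microglial transcripts in this fall was not tested. Bst2 fell by 2.10 ± 0.14, and Smim5 rose by 2.32 ± 0.26. Of 19 genes of Flt3 and growth signalling, 12 rose and 3 fell, with Socs3, a feedback inhibitor of cytokine signalling, at 1.44 ± 0.11, Stat3, a signal transducer downstream of Flt3, at 1.28 ± 0.10, and Nfil3, a factor of type 1 dendritic cell development, at 2.72 ± 0.20.

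Between donor and host leptomeningeal cells, 5 of the 13 type 2 genes rose and 2 fell, and 3 of the 9 type 1 genes rose and 4 fell, where 16.9% of all genes were called higher and 13.3% lower. Il1r2 rose by 2.83 ± 0.26, Itgax, the integrin chain CD11c, by 1.88 ± 0.20 and Mgl2 by 1.37 ± 0.13. Of 15 neutrophil markers, 14 were also called higher and 0 lower, and their part in these values was not tested. Rab7b rose by 1.67 ± 0.18 and Id2 by 0.71 ± 0.12, while Tlr3, a receptor of double-stranded RNA, fell by 1.56 ± 0.30. Fscn1, an actin bundler of mature dendritic cells, fell by 2.58 ± 0.18, and Ccl17 rose by 2.83 ± 0.49 (adjusted p = 7.58e-05). Of the mature genes 6 rose and 3 fell of 14, of the plasmacytoid genes 3 rose and 4 fell of 11, of growth signalling 8 rose and 2 fell of 19, and of partners 3 rose and 2 fell of 10.

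Mutant and control chimeras differed in few of these genes. Id2 rose by 0.60 ± 0.13 in mutant donor microglia (adjusted p = 0.0289), and Mgl2 by 1.17 ± 0.24 in host microglia of mutant chimeras (adjusted p = 0.0377). No other gene of these 6 lists was called for genotype in any population.

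**Figure D4:**
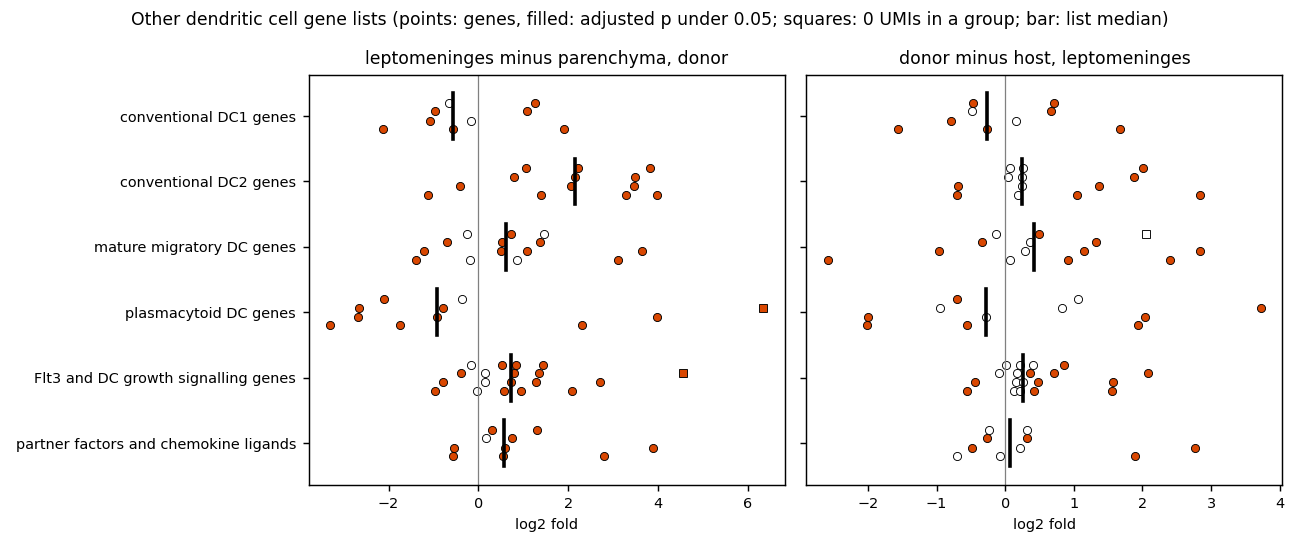
Log2 folds fitted by edgeR for genes of 6 further dendritic cell lists (points) in donor leptomeningeal cells against donor microglia (left) and against host leptomeningeal macrophages (right). Filled points had an adjusted p under 0.05, squares mark genes with 0 UMIs in a group, whose fitted fold depends on the prior count, and bars are list medians. Type 2 genes lie furthest to the right in the left panel (median 2.16) and type 1 genes lie around -0.57.

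Among donor leptomeningeal libraries, the highest and the lowest Cd24a level fell in the libraries with the highest and the lowest sum of neutrophil markers. Control library 2 had the highest Cd24a (150.3 CPM) and the highest sum of 15 neutrophil markers (98892 CPM) of the 8 libraries. Mutant library 2 had the lowest of both, 68.0 CPM and 36911 CPM. Flt3 was also highest in control library 2 (21.85 CPM), while its lowest level was in control library 1 (11.01 CPM, neutrophil sum 56227 CPM) and mutant library 2 had 17.8 CPM. The part of neutrophils in the Cd24a and Flt3 differences was not tested. Monocyte markers summed to 4366 to 8792 CPM in the same libraries, against 1696 to 2304 CPM in host leptomeningeal macrophages.

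**Figure D5:**
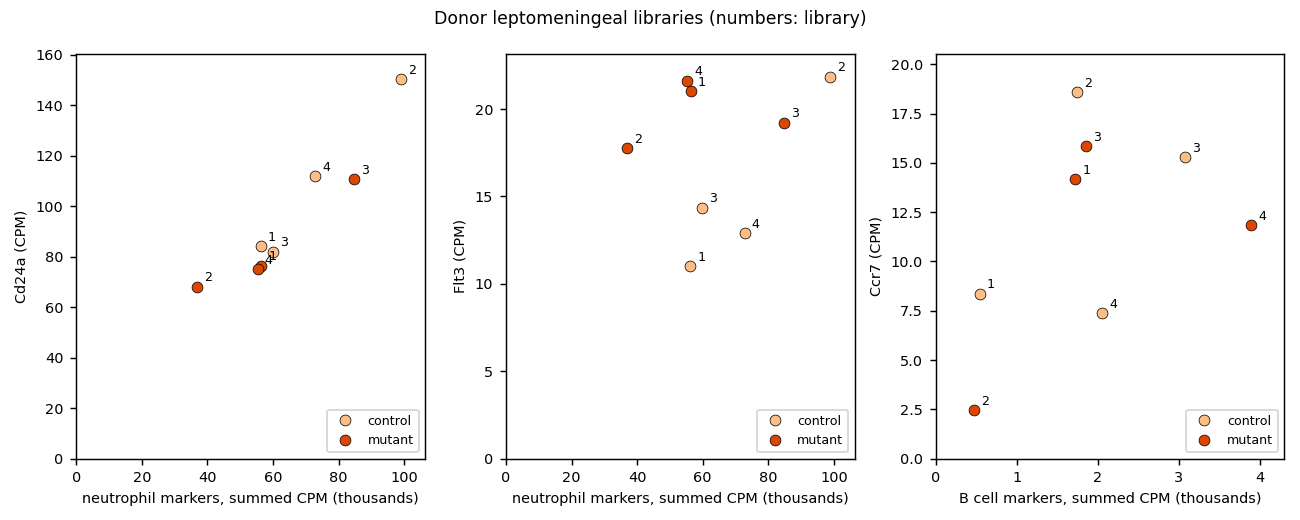
Cd24a and Flt3 (CPM) against the summed CPM of 15 neutrophil markers, and Ccr7 against that of 10 B cell markers, in the 8 donor leptomeningeal libraries (points, numbered by library). Cd24a is highest (150.3 CPM) and lowest (68.0 CPM) where the neutrophil sum is, Flt3 is highest (21.85 CPM) but not lowest (11.01 CPM) there, and the library with the lowest Ccr7 (2.45 CPM) has the lowest B cell sum.

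The genes whose levels over the 28 libraries were most like each member were ranked by Spearman's rho among 12327 genes, a description in which points share population, depth and library. Cd24a was closest to Lcn2 (0.968), Trem3 (0.954), Camp (0.953) and Ngp (0.952), which are neutrophil genes, and to Hdc (0.947). Flt3 was closest to Stx3 (0.906), Pkp3 (0.902), Ap5b1 (0.899), Mgl2 (0.898) and Ifitm1 (0.897), of which Mgl2 and Ifitm1 are on the type 2 list. The closest genes were E2f1 to Clec9a (0.922), Ndufb7 to Ccr7 (0.912), Serpinb10 to Naaa (0.911), Bnip2 to Irf4 (0.895), Junos to Zbtb46 (0.839) and Net1 to Batf3 (0.808). Itgae had no gene above 0.714 (Ube2f). Among the members, Flt3 had a rho of 0.828 with Naaa, 0.789 with Clec9a and 0.046 with Itgae.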

How the data were processed

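MARS-seq libraries of 28 sorted mouse samples in 8 groups were compared. The authors deposited 1 table with raw, normalized and rlog columns per library, per the file headers. The raw columns are UMI counts as deposited, on mm10 per the submitters' processing notes, with aligner and counting tool not given in the sources used here. No test used the normalized columns, which as deposited are signal (counts over a size factor), or the rlog columns, which as deposited are log2 values. CPM was computed from the raw counts, per 1000000 UMIs of the library. Positions of the genes come from GENCODE M21, promoters from the RefSeq table of GRCm38.p6. Sequence matches of motifs were exact.

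Counts were tested with edgeR 4.0.16 (quasi-likelihood, robust, TMM scaling, 1 mean per group over all 28 libraries) in R 4.3.3, on the 12327 genes kept by filterByExpr, with Benjamini-Hochberg adjustment over all of them at 0.05. Population contrasts average both genotypes. TMM adds 0.18 to 0.24 to a log2 fold between populations relative to library totals, and less than 0.1 to those between genotypes. On simulated counts for donor leptomeningeal cells against donor microglia (12327 genes, 100 changed at each fold), 73% of genes changed by a log2 fold of 1 and 97% of those changed by 2 were recovered, with 2.9% false calls. So few changed genes, up and down in balance, differ from the 62.1% called in the real comparison, so these rates need not hold there. Totals of 479077 to 3066506 UMIs set the precision, and intervals and floors (3 UMIs) cover counting error only.

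Alternatives were DESeq2's size factors, every gene kept, the Wald test of DESeq2 1.42.0, the contrast's groups alone, replicate blocks and each library left out. Added after seeing the data were library totals and a fit without the pair of donor microglia libraries standing apart. The genes and lists were chosen with earlier results of these data known. All members with a row are named, with folds for those under 0.05 and for the smallest p where none was, and up to 4 genes per further list with the smallest adjusted p. No replicate pair agreed within counting noise.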

Additional observations from a re-analysis of the deposited data

Results flagged for a closer look

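Of 52 groups of 4 libraries tested, 4 held a library far from the other 3. Chance gives this in about 1 of 20 groups of continuous values, a rate that does not hold for counts this low: in 3 of the 4 the other libraries had 0 UMIs. Flt3 was at 2.087 CPM in control donor microglia library 1 and Zbtb46 at 5.777 CPM in library 2, from 1 and 4 UMIs, with 0 UMIs in the other libraries. Clec9a was at 0.485 CPM in control host microglia library 1, from 1 UMI, with 0 in the others. Ccr7 was at 2.052 CPM, from 1 UMI, in mutant donor microglia library 4, which also stood apart on principal component 5, against 7.89 to 8.53 CPM in the other 3.

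The difference between donor and host cells was not the same in both compartments for 4 genes, by edgeR's interaction term. The adjusted p was 1.622e-10 for Naaa and 0.003341 for Batf3, whose donor excess was larger in the leptomeninges. It was 0.003945 for Clec9a and 0.03524 for Ccr7, whose donor excess was smaller there.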

How the results depend on the processing

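For 36 pairs of gene and contrast, 788 log2 folds were recomputed. The pairs were those called, that with the smallest p where none was called, and a few chosen after the data were seen. Of the 788, 754 kept their direction and side of the threshold, 16 dropped under it, 18 passed it and 0 changed sign. Other pairs were not counted. Among them, Irf4 between genotypes in host microglia went from 0.0291 to -0.0037 with library totals. Of 28 called folds, 23 were called under every alternative run, and the exceptions were Batf3 in donor cells between compartments, Cd24a and Naaa in host cells, and Clec9a and Ccr7 in the interaction. Between donor and host microglia, the 3 called genes became 5 with the contrast's groups alone, with both donor microglia libraries that stood apart left out, and with library totals. Leaving out single libraries gave 3 to 5 there, 6 to 7 between host populations and 2 to 5 in the interaction, and constant counts (8, 6 and 0) in the other contrasts. Fitting the contrast's groups alone was not run for the interaction of origin and compartment, which uses all 8 groups.

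DESeq2 gave an adjusted p for 3 of the 9 genes in the donor microglia genotype contrast. Same-numbered libraries did not deviate together (correlations -0.182 to 0.125), and the labels do not say whether a number marks a shared animal, so they were not treated as pairs. With the replicate block the counts of called genes were 8, 7, 6, 3 and 4 in the population contrasts and interaction and 0 for genotype, and the block within genotype gave 8, 7, 6, 4 and 4. Of 72 group levels, 64 stayed within 1 SD with TMM-scaled totals. Depth limits Flt3, Clec9a, Ccr7 and Zbtb46 in donor microglia, where a library held at most 8 UMIs of each.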

Other observations

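Genes of MHC class II, which present antigen on dendritic cells and macrophages, were called higher in host microglia of mutant chimeras in 3 of 10 tested, where 0.0649% of all genes were called in either direction, and 7 were not called. H2-Ab1 rose by 1.04 ± 0.17 on the log2 scale in host microglia of mutant chimeras (adjusted p = 0.0190, edgeR's quasi-likelihood test with Benjamini-Hochberg adjustment), H2-Eb1 by 1.14 ± 0.20 and Cd74, the invariant chain, by 0.96 ± 0.17 (adjusted p = 0.0258 each). H2-Ab1 was 410.8 ± 185 CPM over the 8 host microglia libraries and 17817 ± 2172 CPM over the 8 donor leptomeningeal libraries (SD). T and NK cell markers summed to 40.2 to 52.5 CPM in mutant and 17.4 to 38.2 CPM in control host microglia, without overlap (0 of 14 called, median log2 fold 1.10), and monocyte markers to 84.0 to 167.9 and 92.1 to 132.3 CPM (0 of 11 called, median 0.62). Their part in the MHC class II values was not tested.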
